A study of Mus musculus with 12 samples.

Results

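The genes described here are 10 epithelial genes of antimicrobial and lectin defence in the mouse colon, named one by one as Reg3b, Reg3g, Itln1, Retnlb, Ang4, Lyz1, Pla2g2a, Lypd8, Sprr2a3 and Saa1. All 10 were among the 55376 genes of the count table, and all 10 were among the 15952 genes with enough reads to be tested. RNA was taken from the proximal colon of 12-week-old mice bred onto C57BL/6, with 1 library per animal, and was sequenced after removal of ribosomal RNA. The 6 control libraries came from EPR fl/fl mice, in which the promoter and exon 1 of the long noncoding RNA EPR are flanked by loxP sites. The other 6 came from EPR cKO mice (EPR fl/fl;CDX2P-NLS Cre), which carry the same floxed alleles together with a Cre recombinase driven by the human CDX2 promoter, which is active in epithelial cells of the colon, the cecum and the last part of the ileum. Recombination in cells outside the epithelium was not examined here. The control mice carry no Cre, and the tissue was taken whole, with muscle and connective tissue. The comparison asks which of these defence genes differ when the epithelium lacks EPR.

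The colonic epithelium keeps bacteria at a distance with mucus and with secreted proteins that bind or kill them. C-type lectins such as Reg3b and Reg3g bind bacterial surface sugars, Itln1 is a lectin for microbial glycans, and Retnlb, Ang4, Lyz1, Pla2g2a and Sprr2a3 encode proteins with direct antibacterial activity. Lypd8 is a membrane-anchored protein of the surface epithelium that binds flagellated bacteria. Many of these genes are known to respond to interleukin 22 and to Toll-like receptor signals, through STAT3 and NF-kB. Goblet cells are a known source of Retnlb and Itln1 in the colon, where Paneth cells, the usual source of Lyz1 and Pla2g2a in the small intestine, are absent.

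The upstream sequences of Reg3b and Reg3g are shown first, because their levels had the highest Pearson's r of any pair across the animals. By Spearman's rho Ang4 with Itln1 stood level with them (0.909). They are RefSeq sequences of GRCm38.p6, 5′ to 3′ on the strand of the gene and ending before the transcription start. Reg3b lies on the plus strand at chr6:78370861-78373466 and its upstream stretch is chr6:78370635-78370860. Reg3g lies on the minus strand at chr6:78466269-78468872 and its upstream stretch is chr6:78468875-78469124. Capitals mark a match to TTCNNNGAA, the letters of a STAT binding site.
Reg3b: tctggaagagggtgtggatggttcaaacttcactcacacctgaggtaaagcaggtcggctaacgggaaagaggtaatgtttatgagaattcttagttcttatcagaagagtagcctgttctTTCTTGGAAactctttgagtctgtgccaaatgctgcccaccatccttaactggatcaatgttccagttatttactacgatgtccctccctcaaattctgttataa
Reg3g: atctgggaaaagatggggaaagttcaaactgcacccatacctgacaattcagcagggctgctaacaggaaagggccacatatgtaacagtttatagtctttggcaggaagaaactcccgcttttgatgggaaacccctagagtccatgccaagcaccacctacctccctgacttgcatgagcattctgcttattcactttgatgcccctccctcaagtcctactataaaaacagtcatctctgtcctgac

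Reg3b holds the match TTCTTGGAA at positions -129 to -121 from its RefSeq start, and Reg3g holds no match in this window. The RefSeq start of Reg3b lies downstream of chr6:78370861, before which its printed stretch of 226 bases ends. RefSeq gave promoter stretches for 8 of the 10 genes. TTCNNNGAA, which reads the same on both strands, was found in those of 3 genes, Reg3b, Ang4 and Sprr2a3, and in 8.30% of all 32851 promoter stretches. A narrow form of the NF-kB site, GGG and TTTCC with any 2 bases between them, was searched on both strands. It was found in 0 of the 8 genes and in 1.63% of all stretches. Other forms of the NF-kB site were not searched, so its absence was not shown. These matches describe letters and not bound sites.

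Total counts ran from 13093904 to 33211041 per library. EPR, listed under its gene symbol Smim31, had 297 to 1474 reads in EPR fl/fl libraries and 0 to 10 in EPR cKO libraries, a log2 fold change of -8.09 ± 0.47 (SE, edgeR adjusted p = 1.62e-06). Levels are read counts scaled to library size and TMM factor (CPM), and log2 fold changes compare EPR cKO with EPR fl/fl. The balance of muscle and epithelium varied among the EPR cKO libraries. The mean log2 CPM of smooth muscle markers minus that of epithelial markers ran from -1.71 to -0.99 in controls and from -3.53 to -0.0019 in EPR cKO, with replicate 1 at the top and the other 5 below every control. In whole tissue, fewer cells of a type and less RNA per cell cannot be told apart. The p-values of the fits set the difference between the groups against the variation between these animals.

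None of the 10 genes passed an adjusted p of 0.05 in the edgeR quasi-likelihood test over all tested genes, which called 1.57% of all genes lower and 0.884% higher (2.46% in either direction). At an unadjusted p under 0.05 there were 5, of which 4 were lower in EPR cKO (Retnlb, Itln1, Lyz1 and Saa1) and 1 was higher (Sprr2a3), while 7.12% of all genes were lower and 11.1% higher at that limit. DESeq2 passed 2 as lower (Retnlb and Itln1) and 1 as higher (Sprr2a3) at an adjusted p of 0.05, where it called 2.97% of all genes lower and 2.77% higher. Plain limma-voom passed 0 of the 10. With quality weights limma-voom passed Lyz1 and Saa1 as lower and Sprr2a3 as higher, where it called 11.9% of all genes lower and 8.6% higher. Without EPR cKO replicate 1 edgeR passed Retnlb and Lyz1 as lower and Sprr2a3 as higher, a fit that called 14.4% of all genes lower and 7.44% higher. The fold change was below 0 for 6 genes and above 0 for 4, with a median of -0.28 against 0.02 over all genes tested. The EPR fl/fl and EPR cKO libraries overlapped for each of the 10 genes, whereas 2.47% of all genes did not overlap (1.47% lower and 1% higher in EPR cKO).

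**Figure D1:**
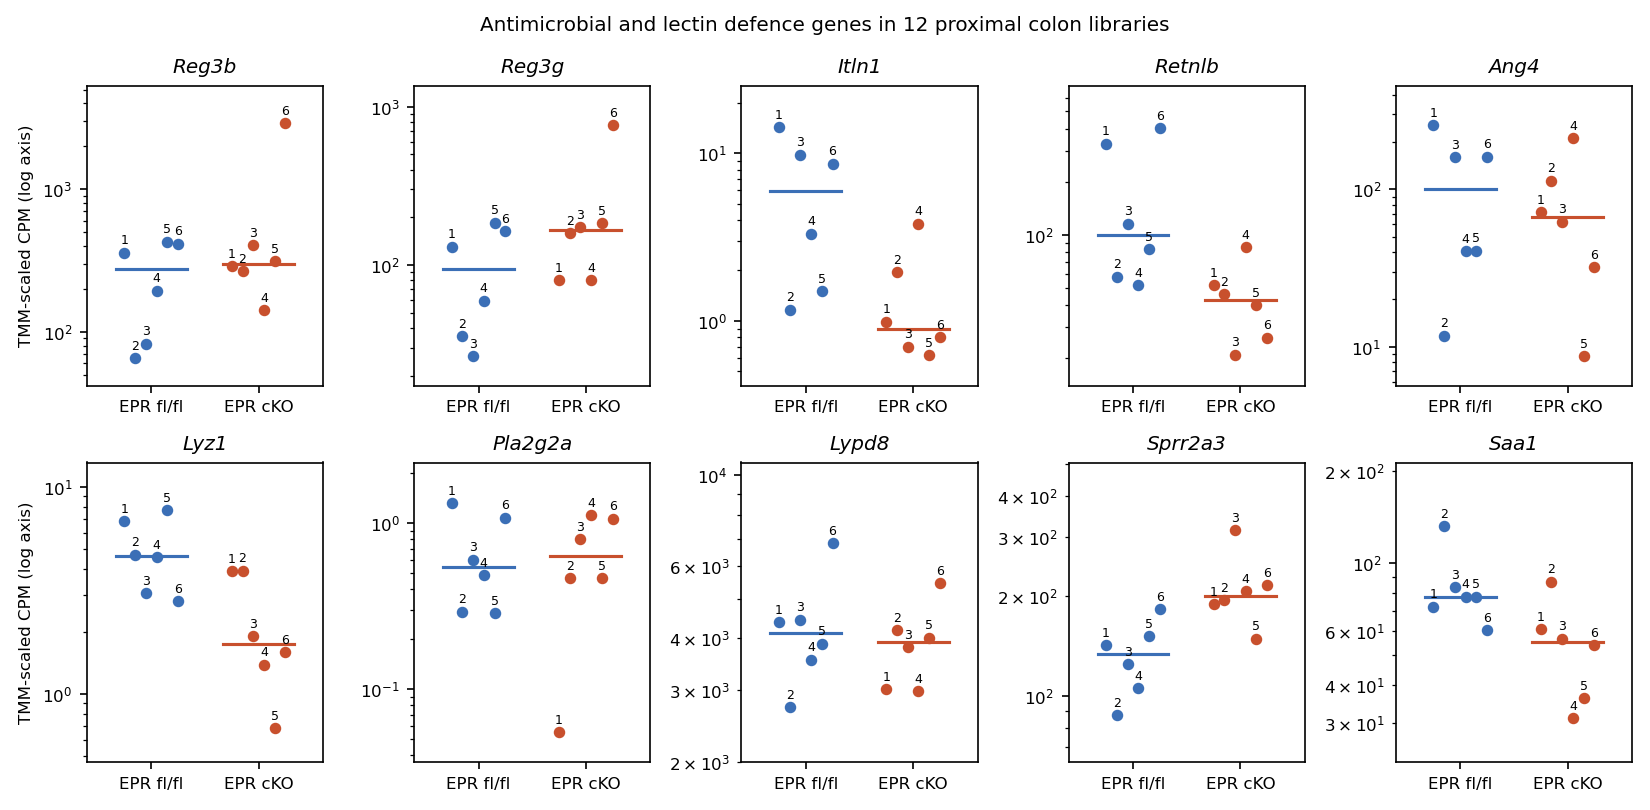
CPM of each of the 10 genes on a log axis, with 1 point per library labelled by its replicate number and a line at the group median (6 libraries per group). Reg3b and Reg3g have 1 EPR cKO library, replicate 6, far above the rest, and Sprr2a3 has 5 of 6 EPR cKO libraries above every control.

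Per kilobase of exon, Lypd8 was the most abundant of the 10 genes, with a mean of 3348 ± 1083 RPKM in controls and 3042 ± 713 RPKM in EPR cKO libraries (SD, n = 6 each). Reg3b followed at 329 RPKM in controls and Retnlb at 248 RPKM. Ang4 at 158 RPKM, Saa1 at 138 RPKM and Reg3g at 130 RPKM lay close together, within the spread of Ang4 and Reg3g among control animals. Sprr2a3 stood at 45.9 RPKM, Itln1 at 5.67 RPKM, Lyz1 at 3.92 RPKM and Pla2g2a at 0.856 RPKM in the controls. In EPR cKO the order changed in the mean. Reg3b at 924.2 ± 1381 RPKM and Reg3g at 311 ± 337 RPKM (SD, n = 6 each) stood ahead of Ang4 at 118 RPKM and Saa1 at 89.2 RPKM. Sprr2a3 at 73.3 RPKM and Retnlb at 64.5 RPKM followed. The means of both Reg3 genes were raised by replicate 6 alone, with 3734 RPKM of Reg3b and 988 RPKM of Reg3g. The place of Sprr2a3 depends on its 2883 exon bases. In mean CPM of controls it stood at 132, above Ang4 (112), Reg3g (100.1) and Saa1 (84.0).

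Reg3b and Reg3g, which encode bactericidal C-type lectins, had higher means in EPR cKO, and 1 animal carried most of that difference. Reg3b had 65.6 CPM in the lowest, 277 at the median and 428 in the highest EPR fl/fl library. In EPR cKO libraries it had 142 CPM at the lowest, 301 at the median and 2924 at the highest. The highest value belonged to EPR cKO replicate 6 alone, and the other 5 lay between 142 and 407 CPM, inside the range of the controls. The log2 fold change of Reg3b was 1.49 ± 0.75 (SE, 95% interval -0.18 to 3.16, edgeR adjusted p = 0.311), and without that library it was 0.14 (adjusted p = 0.914).

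Reg3g had the same shape at lower levels. Its EPR fl/fl libraries held 26.5 CPM at the lowest, 94.8 at the median and 185 at the highest, and its EPR cKO libraries 80.2, 166 and 762 CPM. Again replicate 6 was the high one, and the other 5 reached at most 183 CPM. For Reg3g the log2 fold change was 1.26 ± 0.62 (SE, 95% interval -0.13 to 2.65, edgeR adjusted p = 0.305), and 0.44 without replicate 6 (adjusted p = 0.724). The muscle to epithelium balance of replicate 6 was -3.45, below every control. With that balance as a covariate, the log2 fold change was 0.54 for Reg3b (edgeR adjusted p = 0.820) and 0.34 for Reg3g (edgeR adjusted p = 0.877). Its part in the level of both genes in replicate 6 was not tested.

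**Figure D2:**
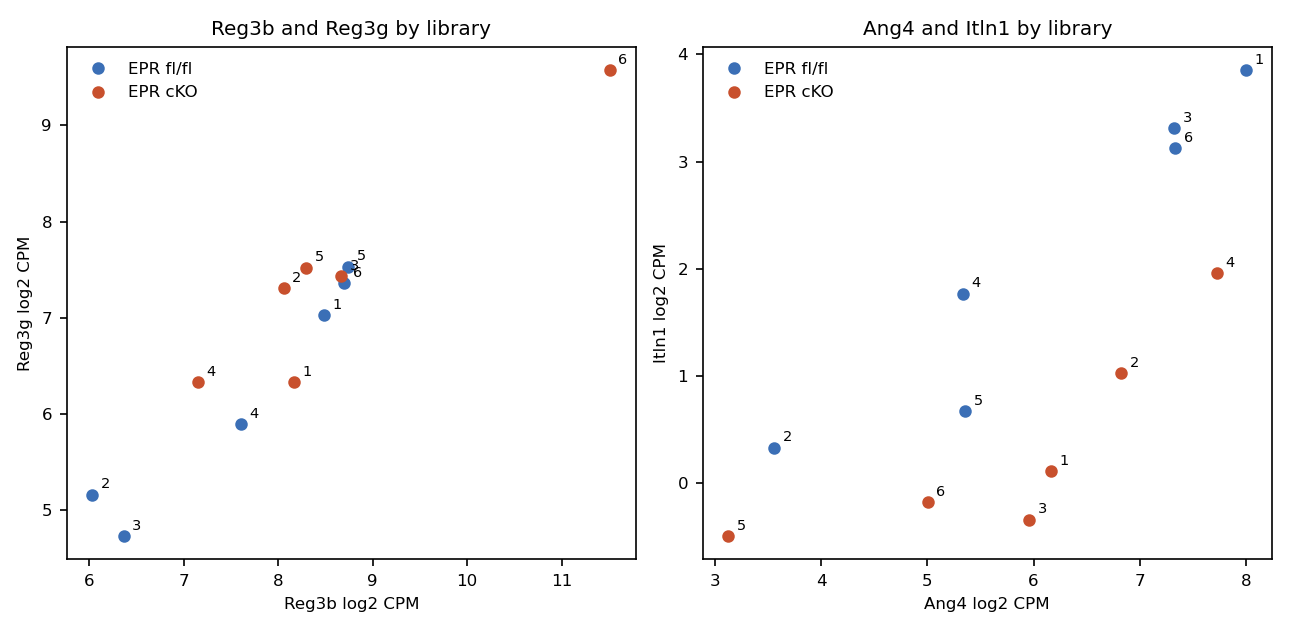
Log2 CPM of Reg3b against Reg3g (left) and of Ang4 against Itln1 (right), 1 point per library, labelled by replicate number and coloured by group. In both pairs the genes are high in the same libraries within each group, and in the right panel the EPR cKO libraries lie below EPR fl/fl libraries of like Ang4 level.

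The levels of Reg3b and Reg3g followed each other across animals. With each group centred on its own mean, Pearson's r over the 12 libraries was 0.948 (permutation within groups, p = 0.00032, adjusted over 45 pairs 0.0072), and Spearman's rho was 0.909 (permutation p = 0.00031, adjusted 0.00697). Within EPR fl/fl the r was 0.968 and within EPR cKO 0.943, and it stayed at 0.924 without the 2 libraries farthest from the median of Reg3b. In counts, Reg3b exceeded Reg3g 1.68 to 3.84 times in every library. No stretch of 50 bases was shared between the transcripts of Reg3b or Reg3g and any other gene. Among relatives, Reg3a had 1.78 CPM in controls and 1.11 in EPR cKO (log2 fold change -0.66, edgeR adjusted p = 0.401). Reg4, a lectin of deep crypt secretory cells, had 163 and 133 CPM (-0.28, edgeR adjusted p = 0.845). Reg1 rose from 0.319 ± 0.15 to 1.14 ± 0.61 CPM (SD, n = 6 each, log2 fold change 1.86, edgeR adjusted p = 0.0473), with at most 49 reads in a library. Reg1 could be tested in 8 of 12 fits that left out 1 library and passed in 1 of them, the fit without EPR cKO replicate 1 (edgeR adjusted p from 0.00441 to 0.122). With all libraries it did not pass with the replicate block (1.78, edgeR adjusted p = 0.115) or the tissue covariate (1.07, edgeR adjusted p = 0.283), and it passed in 3 of 8 alternatives.

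Itln1 and Retnlb, a lectin and a bactericidal resistin-like protein both known from goblet cells, had the lowest fold changes of the 10 genes. Itln1 (chr1:171518122-171535294) had 1.17 CPM at the lowest, 5.99 at the median and 14.4 at the highest in EPR fl/fl, against 0.624, 0.895 and 3.80 CPM in EPR cKO. All 6 EPR cKO libraries were below the control median and 4 of them were below every control, while EPR fl/fl replicates 2 and 5 were as low as the upper EPR cKO libraries. For Itln1 the log2 fold change was -2.12 ± 0.66 (SE, 95% interval -3.58 to -0.66, edgeR adjusted p = 0.115, DESeq2 adjusted p = 0.0132). Over the 9 alternatives with all libraries its adjusted p ran from 0.0132 to 0.308, and DESeq2 alone passed. Leaving out 1 library at a time gave fold changes from -2.66 to -1.73.

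Retnlb (chr16:48816856-48818892) had 51.6 CPM at the lowest, 99.1 at the median and 401 at the highest in EPR fl/fl. Its EPR cKO libraries had 20.8, 42.7 and 85.2 CPM. The controls spread widely, with replicates 1 and 6 at 328 and 401 CPM and the other 4 between 51.6 and 115, and 4 of 6 EPR cKO libraries were below every control. For Retnlb the log2 fold change was -1.94 ± 0.54 (SE, 95% interval -3.16 to -0.73, edgeR adjusted p = 0.0847). It passed 0.05 with DESeq2 (adjusted p = 0.0265) and without EPR cKO replicate 1, the muscle-rich library (-2.01, edgeR adjusted p = 0.0293), 2 fits that also called more of all genes. Over the 9 alternatives with all libraries the adjusted p of Retnlb ran from 0.0265 to 0.261. It did not pass with limma-voom (-1.62, adjusted p = 0.111) or the replicate block (-1.63, edgeR adjusted p = 0.214). With the tissue covariate the fold change stayed near that of the main fit with a larger error and did not pass (-1.81 ± 0.74, SE, edgeR adjusted p = 0.261).

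Goblet cell markers were lower in EPR cKO, the same direction as the means of Itln1 and Retnlb. Of 10 markers, 7 were lower in EPR cKO and 0 were higher at an edgeR adjusted p under 0.05. Of all genes, 1.57% were called lower and 0.884% higher. The paper had already named Muc2, Fcgbp, Clca1, Agr2 and Sytl2 as reduced in these data, so this count is no independent evidence. The summed level of the markers was 13522 to 28636 CPM in EPR fl/fl against 6229 to 8646 CPM in EPR cKO. Muc2, the main gel-forming mucin, fell by 2.19 on the log2 scale (edgeR adjusted p = 0.000741). Ang4, whose closest match among tested genes outside the 10 was the goblet cell marker Clca1 (group-centred Pearson's r = 0.910), differed less. Its log2 fold change was -0.42 (edgeR adjusted p = 0.771). The part of the goblet cell markers in the values of Itln1, Retnlb and Ang4 was not tested. Among the resistin relatives, Retnla had 12.4 CPM in controls and 5.71 in EPR cKO (log2 fold change -1.11, edgeR adjusted p = 0.351). Retn, a product of fat cells, had 26.7 and 10.7 CPM (-1.32, edgeR adjusted p = 0.282), beside a summed level of the other 9 adipocyte markers of 780.3 to 1827 CPM in controls and 389 to 1349 CPM in EPR cKO.

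Ang4, a bactericidal ribonuclease (chr14:51763878-51773590), varied more among animals than between the groups. It ran from 11.7 through a median of 101 to 256 CPM in controls and from 8.67 through 66.8 to 212 CPM in EPR cKO. The highest library exceeded the lowest 21.8 times in the controls and 24.5 times in EPR cKO, so low and high animals were found in both groups. The log2 fold change of Ang4 was -0.42 ± 0.74 (SE, 95% interval -2.07 to 1.22, edgeR adjusted p = 0.771), and its sign turned when EPR fl/fl replicate 1 was left out (0.0025).

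Ang4 and Itln1 were high and low in the same animals. Over the 12 group-centred libraries Pearson's r was 0.891 (permutation within groups, p = 0.00027, adjusted over 45 pairs 0.0072) and Spearman's rho was 0.909 (permutation p = 0.0003, adjusted 0.00697). The r was 0.957 within EPR fl/fl, 0.823 within EPR cKO and 0.936 without the 2 libraries farthest from the median of Ang4. Control replicates 1, 3 and 6 were high in both genes, and so was EPR cKO replicate 4, while control replicate 2 and EPR cKO replicate 5 were lowest in both. Ang4 and Itln1 lie on different chromosomes. Of the 45 pairs, Reg3b with Reg3g and Ang4 with Itln1 were the 2 that passed. Without EPR fl/fl replicate 4, Reg3b with Reg3g missed the limit (adjusted permutation p = 0.0520), and without EPR fl/fl replicate 3 both Reg3 genes also passed with Lypd8 (adjusted permutation p = 0.0332 for Reg3b and 0.0151 for Reg3g). With all libraries the next pairs were Retnlb with Itln1 (r = 0.786, adjusted permutation p = 0.129) and Reg3b with Lypd8 (r = 0.697, adjusted permutation p = 0.129).

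Of the ribonucleases related to Ang4, 1 passed the test. Rnase4, which is transcribed from promoters it shares with Ang, fell from 164 ± 31.5 to 100.1 ± 7.55 CPM (SD, n = 6 each, log2 fold change -0.71, edgeR adjusted p = 0.00595) without overlap. Rnase4 passed in all 12 fits that left out 1 library. Ang had 17.1 and 11.6 CPM, also without overlap between the groups (-0.55, edgeR adjusted p = 0.0719). Reads of exons that Ang and Rnase4 share could have gone to either gene.

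Lyz1 and Pla2g2a, Paneth cell products in the small intestine, were scarce in these colons. Lyz1, a lysozyme that cuts bacterial cell walls (chr10:117287797-117292868), had 2.80, 4.65 and 7.74 CPM at the lowest, median and highest in controls and 0.686, 1.75 and 3.94 CPM in EPR cKO. All 6 EPR cKO libraries were below the control median and 4 were below every control. The log2 fold change of Lyz1 was -1.14 ± 0.41 (SE, 95% interval -2.05 to -0.24, edgeR adjusted p = 0.166), from 22 to 145 reads per library, and -1.39 without EPR cKO replicate 1 (edgeR adjusted p = 0.0279). With the muscle to epithelium balance as a covariate it was -0.67 (edgeR adjusted p = 0.458).

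Of 13 Paneth cell markers in the table, 10 had 0 reads in every library. The 1 that could be tested, the protease Mmp7, had 1.58 CPM in controls and 0.523 in EPR cKO (log2 fold change -1.58, edgeR adjusted p = 0.0355), and its part in the value of Lyz1 was not tested. The coding sequences of Lyz1 and Lyz2, the lysozyme of macrophages, are 95.0% identical over 444 bases, and 16.1% of the 50-base stretches of Lyz1 also occur in Lyz2. Reads from stretches without a difference cannot be told apart. Positions 61 to 120 of both coding sequences are shown, counted from 1 at the start codon and read from the GRCm38 reference transcripts. They hold 9 differences, and no window of this length held more, so the copies are more alike elsewhere. Capitals mark the bases that differ.
Lyz1: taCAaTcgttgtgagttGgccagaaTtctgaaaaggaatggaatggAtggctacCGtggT
Lyz2: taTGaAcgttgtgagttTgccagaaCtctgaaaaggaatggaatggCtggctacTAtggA

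Lyz2 stood at 125 CPM in controls and 95.4 in EPR cKO (log2 fold change -0.39, edgeR adjusted p = 0.324), and the sum of Lyz1 and Lyz2 had a log2 fold change of -0.42 (edgeR adjusted p = 0.295). The part of Lyz2 in the value of Lyz1 was not tested. The other 10 macrophage markers, without Lyz2, summed to 128 to 343 CPM in controls and 102 to 250.05 CPM in EPR cKO, with 0 of 10 past the test.

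Pla2g2a, a secreted phospholipase (chr4:138831857-138835186) of which C57BL/6 mice are known to carry a disrupted copy, had 1 to 25 reads per library. Its level was 0.677 ± 0.43 CPM in controls and 0.662 ± 0.41 in EPR cKO (SD, n = 6 each, log2 fold change 0.01 ± 0.51, SE, edgeR adjusted p = 0.993). The 95% interval of that fold change, -1.13 to 1.15, covers changes in either direction that were not detectable at this depth. Among other secreted phospholipases, Pla2g2f fell from 2.98 ± 0.94 to 1.36 ± 0.48 CPM (SD, n = 6 each, -1.11, edgeR adjusted p = 0.0458), a call that held in 2 of 12 fits that left out 1 library, those without EPR cKO replicates 1 and 6 (edgeR adjusted p from 0.0141 to 0.117). Pla2g2f did not pass with the replicate block (edgeR adjusted p = 0.104) or with no filter (0.0684). Pla2g10, the most abundant of the phospholipases listed, had 30.02 and 30.1 CPM (0.01, edgeR adjusted p = 0.985). Pla2g5 (0.35, edgeR adjusted p = 0.649) and Pla2g12b (0.21, edgeR adjusted p = 0.612) did not pass.

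Lypd8 (chr11:58379043-58390728) had the highest CPM of the 10 genes in each of the 12 libraries. It ran from 2714 to 6827 CPM in controls and from 2970 to 5453 CPM in EPR cKO, with the ranges largely shared. For Lypd8 the log2 fold change was -0.14 ± 0.21 (SE, 95% interval -0.61 to 0.33, edgeR adjusted p = 0.737). Lypd8 made up 77.0% to 88.0% of the summed CPM of the 10 genes in EPR fl/fl libraries and 78.6% to 84.6% in 5 EPR cKO libraries. In EPR cKO replicate 6, with its high Reg3b, the share was 57.6%. Of 11 markers of surface colonocytes, the cells that make Lypd8, 0 passed the test in either direction.

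Sprr2a3, a small proline-rich protein with activity against Gram-positive bacteria (chr3:92285417-92291405), had the highest fold change relative to its error among the 4 genes above 0. It had 87.5 CPM at the lowest, 133 at the median and 182 at the highest in controls, and 149, 200 and 315 CPM in EPR cKO. All 6 EPR cKO libraries were above the control median and 5 were above every control, with replicate 5 inside the control range. The log2 fold change of Sprr2a3 was 0.68 ± 0.19 (SE, 95% interval 0.25 to 1.11, edgeR adjusted p = 0.0871), and it passed with DESeq2 (adjusted p = 0.0226) and without EPR cKO replicate 1 (0.69, edgeR adjusted p = 0.0298), 2 fits that also called more of all genes. Over the 9 alternatives with all libraries the adjusted p of Sprr2a3 ran from 0.0122 to 0.138. It did not pass with total counts (0.65, edgeR adjusted p = 0.138) or the replicate block (0.68, edgeR adjusted p = 0.122). With the tissue covariate the fold change stayed near that of the main fit with a larger error and did not pass (0.74 ± 0.23, SE, edgeR adjusted p = 0.136).

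Sprr2a3 has 2 near-identical neighbours, Sprr2a1 and Sprr2a2, whose coding sequences equal each other over 249 bases. From Sprr2a3 to Sprr2a1 the coding sequence differs by A63G, T159G and T192A, counted from 1 at the start codon, and 61.1% of the 50-base stretches of Sprr2a3 occur in another gene. Positions 133 to 192, from the GRCm38 reference transcripts, show how few bases separate the copies, with the differing bases in capitals.
Sprr2a3: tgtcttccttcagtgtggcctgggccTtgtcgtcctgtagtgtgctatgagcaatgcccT
Sprr2a1: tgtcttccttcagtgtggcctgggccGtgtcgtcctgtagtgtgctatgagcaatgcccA

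The level of each copy is therefore uncertain. Sprr2a1 was listed at 30.8 CPM in controls and 33.8 in EPR cKO (log2 fold change 0.14, edgeR adjusted p = 0.512). Sprr2a2 was listed at 51.9 and 52.4 CPM (0.02, edgeR adjusted p = 0.942). The 3 copies summed had a log2 fold change of 0.47 (edgeR adjusted p = 0.112). Sprr1a, a relative, had 11.8 and 17.1 CPM (0.55, edgeR adjusted p = 0.438).

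Saa1, an acute phase protein that carries retinol (chr7:46740497-46742980), had 60.6 CPM at the lowest, 77.7 at the median and 132 at the highest in controls and 31.2, 55.3 and 87.1 CPM in EPR cKO. Of the EPR cKO libraries, 4 were below every control, replicate 1 was just above the lowest control and replicate 2 lay within the control range. For Saa1 the log2 fold change was -0.63 ± 0.24 (SE, 95% interval -1.17 to -0.09, edgeR adjusted p = 0.195). The coding sequence of Saa1 is 95.1% identical to that of Saa2 over 366 bases and 14.8% of its 50-base stretches also occur in Saa2 or Saa3. Saa2 was listed at 0.27 CPM in controls and 0.176 in EPR cKO, and the sum of Saa1 and Saa2 gave the same -0.63. Saa3 had 5.50 and 4.78 CPM (-0.20, edgeR adjusted p = 0.768).

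**Figure D3:**
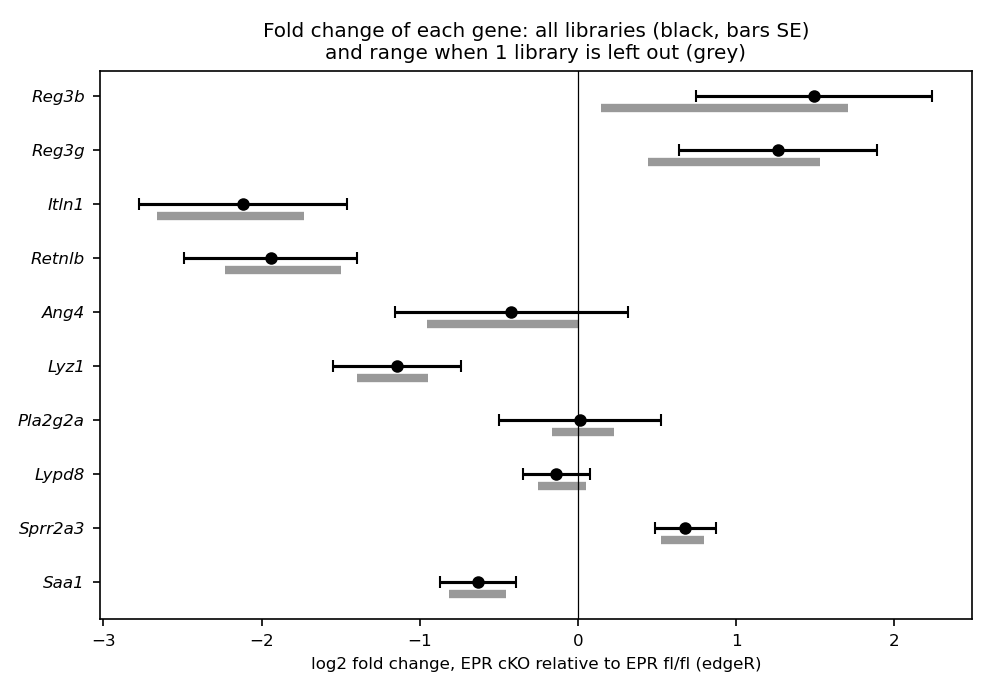
Log2 fold change of each gene in EPR cKO relative to EPR fl/fl from all 12 libraries (black point, bar of 1 SE) and the range when 1 library at a time was left out (grey). Reg3b reaches from 0.14 to 1.71 in the grey range, while Itln1, Retnlb, Lyz1 and Saa1 stay below 0 and Sprr2a3 above 0.

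The spread among animals, as the mean distance of log2 CPM from the group median, did not pass a test of difference between the groups for any of the 10 genes (exact permutation test over every assignment of the libraries, two-sided, smallest p = 0.171, for Itln1, adjusted p = 0.786). Ang4 had the widest spread in both groups, at 1.40 in controls and 1.10 in EPR cKO. Lypd8, Sprr2a3 and Saa1 were the tightest in the controls, at 0.305, 0.295 and 0.224.

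Beyond these 10 genes and their relatives, other antimicrobial genes were mostly lower in the mean in EPR cKO. Of 15 tested, 14 had a fold change below 0 with a median of -0.47, and 2 passed. Both of those were lower, where 1.57% of all genes were called lower. Wfdc2, a protease inhibitor of mucosal secretions, fell from 16.2 ± 3.54 to 6.39 ± 2.25 CPM (SD, n = 6 each, log2 fold change -1.34, edgeR adjusted p = 0.00489) without overlap between the groups. Zg16, a goblet cell lectin that binds Gram-positive bacteria, fell from 1564 ± 307 to 885 ± 224 CPM (SD, n = 6 each, -0.82, edgeR adjusted p = 0.0234). It was also counted among the goblet cell markers above. Zg16 missed the limit without EPR fl/fl replicate 5 or EPR cKO replicate 2, 3 or 6 (edgeR adjusted p at most 0.0725), and Wfdc2 passed in all 12 fits that left out 1 library. Dmbt1, a scavenger receptor protein and the most abundant of them, had 5865 and 5549 CPM (-0.08, edgeR adjusted p = 0.786). Duox2, which makes hydrogen peroxide, had 202 and 146 CPM (-0.47, edgeR adjusted p = 0.399).

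**Figure D4:**
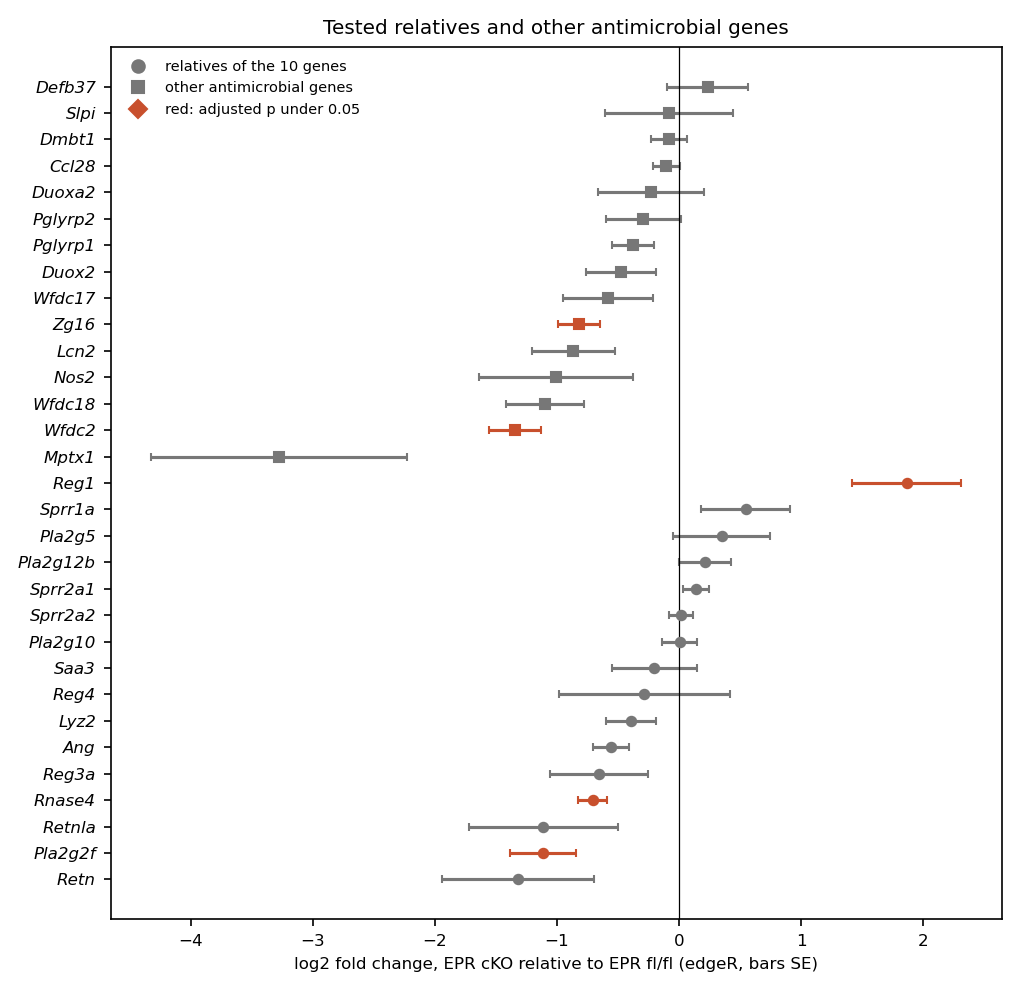
Log2 fold change with a bar of 1 SE for the 16 tested relatives of the 10 genes (circles) and 15 other antimicrobial genes (squares), red where the edgeR adjusted p was under 0.05. Wfdc2, Zg16, Rnase4 and Pla2g2f lie below 0 and Reg1 above 0 among the red points.

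Among genes that are known to induce these defences, 1 passed the test. Of 50 listed receptors, ligands and signalling genes, 39 could be tested. Of those tested, 1 was lower and 0 were higher, where 1.57% of all genes were lower, and their median fold change was 0.00. Several ligands were among the untested genes. Il22 and Il17f had at most 1 read in a library, Il17a had 0 and Il6 at most 4. Changes in these ligands could not be measured. Tlr2, a receptor for bacterial lipoproteins, fell from 41.3 ± 9.17 to 26.5 ± 2.01 CPM (SD, n = 6 each, log2 fold change -0.64, edgeR adjusted p = 0.0267), and passed in 4 of 12 fits that left out 1 library, those without EPR fl/fl replicates 2 and 6 and EPR cKO replicates 1 and 6 (edgeR adjusted p from 0.00158 to 0.0718). Tlr2 did not pass with the replicate block or the tissue covariate (edgeR adjusted p at most 0.113). The 3 most abundant by mean CPM over both groups were Nlrp6, an inflammasome sensor of the epithelium (0.14, edgeR adjusted p = 0.517), Casp1, the inflammasome protease (0.15, edgeR adjusted p = 0.496), and Stat3, the transcription factor downstream of interleukin 22 (0.00, edgeR adjusted p = 0.993).

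Genes outside the list that tracked each member most closely, by Pearson's r of group-centred log2 CPM over the 12 libraries, are given as a description, picked as the highest of all tested genes. Ang4 was most like Clca1, a goblet cell protein that processes mucus (r = 0.910), and Pla2g4c (0.857). Lypd8 was most like H2-T22 (0.941) and Ly6e (0.937). Reg3b was most like Cd200r1 (0.902) and Lurap1l (0.885), and Reg3g like Gskip (0.929) and Fam207a (0.918). Retnlb was most like Dnajb9, a chaperone of the endoplasmic reticulum (0.856), and Arl15 (0.848), and Itln1 like Arl15 (0.890). Lyz1 tracked Medag (0.927) and Sphk1 (0.912), Sprr2a3 tracked Hk2 (0.882) and Clca2 (0.839), Saa1 tracked Ctdsp1 (0.904) and Wiz (0.893), and Pla2g2a tracked Slc7a11 (0.935) and Eomes (0.930). Arl15 was thus shared by Retnlb and Itln1.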

How the data were processed

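Proximal colon RNA from 12 mice, 6 controls (EPR fl/fl) and 6 EPR cKO, was sequenced as stranded total RNA after ribosomal depletion. The deposited values are raw read counts per gene that the authors made by aligning reads to GRCm38 (mm10) with STAR 2.5.3a and counting with featureCounts. The strand setting and the treatment of reads with several matches are not given in the sources used here, which matters most for Sprr2a3, Lyz1 and Saa1. Groups follow the sample labels. Genes with at least 1 CPM in at least 4 libraries were tested with edgeR 4.0.16 (TMM, quasi-likelihood test, Benjamini-Hochberg adjustment) in R 4.3.3. Alternatives used DESeq2 1.42.0, limma 3.58.1 (voom, with and without quality weights), other scalings and filters, a replicate block, a tissue covariate and the omission of each library. Log2 CPM used a prior count of 2. Correlations were tested by 100000 permutations within groups and spread by exact permutation. The fit was tested on simulated data.

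The 10 genes and all gene lists were chosen with earlier results of these data known. Named genes were the 10 genes, EPR, relatives with a mean of at least 1 CPM in either group, other antimicrobial and inducing genes past an adjusted p of 0.05 or among the 3 most abundant, and the 2 genes most like each member, of which 1 is not reported here. Saa2, which is under that level, was added after its values were seen because its sequence is shared. Il22, Il17a, Il17f and Il6 were also added after their values were seen. Shared stretches of 50 bases were counted against GENCODE M21 transcripts, and upstream sequences are from RefSeq on GRCm38.p6.

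Total counts per library and the number of animals set the precision. Marker lists could be tested only in part, with 1 of 10 neutrophil, 1 of 12 pancreas, 5 of 9 ileal enterocyte and 7 of 10 plasma and B cell genes tested, and 0 of these and of 10 T cell genes passed the edgeR test. The ileal marker Fabp6, named after its values were seen, did not overlap between the groups (log2 fold change -2.02, edgeR adjusted p = 0.0515). Epithelial and smooth muscle lists gave 0 genes past the test, adipocyte markers 1 and Paneth cell markers 1.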

Additional observations from a re-analysis of the deposited data

Results flagged for a closer look

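Of 30 sets of 6 libraries examined, 6 held a library set apart from the other 5. The measure was Dixon's ratio, the gap to the nearest value divided by the range. Its limit marks about 1 in 20 sets by chance where values are normally distributed. That was not shown for the CPM values, sums and shares used here, and EPR had only 0 to 10 reads in EPR cKO libraries. Whether 6 sets are more than chance gives was therefore not tested. Reg3b stood at 2924 CPM in EPR cKO replicate 6 against 142 to 407 CPM in the other EPR cKO libraries, and Reg3g stood at 762 CPM there against 80.2 to 183 CPM. In the same library the summed level of the 10 genes was 9469.7 CPM against 3734 to 5060 CPM in the other 5, and Lypd8 took 57.6% of that sum against 78.6% to 84.6%. These 4 sets share 1 library and are not independent. Saa1 stood at 132 CPM in EPR fl/fl replicate 2 against 60.6 to 83.7 CPM in the other controls. EPR itself stood at 0.424 CPM in EPR cKO replicate 2 against 0 to 0.134 CPM in the other EPR cKO libraries.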

How the results depend on the processing

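The count of genes lower in EPR cKO was 251 and became 473 with DESeq2 and 1891 with quality-weighted voom. The count of genes higher was 141 and became 39 with total counts, 54 with no filter, 440 with DESeq2, 1372 with quality-weighted voom and 81 with the tissue covariate. Leaving out 1 library gave 145 to 2273 lower and 28 to 1178 higher genes, the top of both without EPR cKO replicate 1. Of the 10 genes, 0 were lower and 0 higher in the edgeR test, 2 and 1 with DESeq2, 2 and 1 with quality-weighted voom (Lyz1 and Saa1 lower, Sprr2a3 higher), and 0 to 2 and 0 to 1 on leaving out 1 library, with 2 and 1 without EPR cKO replicate 1. Pairs of genes that moved together numbered 2, or 1 to 4 on leaving out 1 library. There was 1 pair without EPR fl/fl replicate 4 and 4 without EPR fl/fl replicate 3.

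The direction of Ang4 turned with quality-weighted voom (0.23) and without EPR fl/fl replicate 1 (0.0025), and that of Lypd8 without EPR fl/fl replicate 6 (0.047). On leaving out 1 library their ranges were -0.96 to 0.0025 and -0.26 to 0.047. Pla2g2a turned with no filter (-0.018), DESeq2 (-0.019), limma-voom (-0.12), the tissue covariate (-0.98) and on leaving out 5 single libraries, from -0.16 to -0.017. In each case the cause was not tested.

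Replicate numbers were shared by both groups, but same-numbered libraries correlated from -0.242 to 0.340. Of 6 libraries, 2 matched their own number best. A pairing of the animals by number was thus not shown, and these correlations cannot exclude one. A fit with the replicate number as a block gave 67 genes higher and no call among the 10 genes. The fewest reads in a library were 1 for Pla2g2a, 14 for Itln1 and 22 for Lyz1, and the part of depth in their spread was not tested.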
